A study of Mus musculus with 4 samples.

Results

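Neat1 is a long noncoding RNA of the nucleus. Its crosslink sites in the SRSF4-GFP pull-down lay almost entirely in a 5′ window taken as the part that holds the short isoform. SRSF4 is a serine and arginine-rich splicing factor. Its RNA contacts were mapped by iCLIP (individual-nucleotide resolution crosslinking and immunoprecipitation), in which the start of a cDNA marks the nucleotide next to which reverse transcription stopped on a crosslinked protein. The cells were cardiomyocytes of newborn (P0-1) C57BL/6 mice, which all received 15 μg of SRSF4-GFP modRNA (modified RNA) and, after 48 h, an ultraviolet dose of 100 mJ at 254 nm, before pull-down with an antibody to GFP. The labels describe 4 libraries in 1 group, with no GFP-only, input or untransfected control. The protein was supplied from outside and carried a tag, and the labels do not say if each library had its own culture. The values are 1 pooled sum, so no spread between replicates can be given. Per the file header the sum is over 5 data sets, and how these map to the 4 libraries is not known. RNA held back in the pull-down without SRSF4 cannot be told apart from RNA bound by it, and the level of Neat1 RNA itself was not measured.

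The sites were chosen by position: minus-strand sites between 5824000 and 5846000 on chromosome 19 of the mm9 build, the locus of Neat1. Of 33749 listed sites, 442 met this rule, and they carried 640 of the 93371 pooled cDNAs. That is 1.31% of sites and 0.685% of cDNAs (95% exact binomial interval 0.634% to 0.740%; all such intervals here cover counting error only). The gene was picked with its site count and the contrast between its parts already known, so those values are given as a description with no test. The list pairs no position with a gene name. The label was therefore checked by distances. The 5′ end of the Neat1 sites lay 42658 nt from the 5′ end of the run of sites taken as Malat1, the neighbouring nuclear noncoding RNA. In the GENCODE M21 annotation of GRCm38, the 5′ ends of Neat1 and Malat1 are 42806 nt apart, a difference of 148 nt. Of cardiomyocyte markers, only Ttn, the transcript of the sarcomere protein titin, was read, named by position in the same way, and its run held 566 sites with 719 cDNAs.

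As background, both isoforms of Neat1 start at the same promoter. The short isoform ends at an early polyadenylation site. The long isoform reads through that site and is the scaffold of paraspeckles, nuclear bodies that hold RNA-binding proteins such as NONO and SFPQ. SR proteins, the family of SRSF4, are known for binding purine-rich RNA.

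The boundary between the isoforms could be read from the reference transcripts. The annotated long transcript, Neat1-201, has 20771 nt and a single exon. The 3′ end of the short transcript, Neat1-202, matched it at base 3172, which leaves 17599 nt downstream for the long isoform alone. The annotated short transcript spans 3170 nt and has 3004 nt after splicing, so 166 nt within its span are also absent from its spliced form. The sequence around that end is shown because it divides the parts of the reference transcript compared below. It covers bases 3123 to 3222 of Neat1-201, 50 on each side of the end, and capitals mark the polyadenylation signal AATAAA, whose first base lies 19 nt before the last base of the short isoform. The transcribed strand alone was searched. Of 8956 annotated lincRNA transcripts, 31.0% held AATAAA in their last 50 nt.
End of the short isoform: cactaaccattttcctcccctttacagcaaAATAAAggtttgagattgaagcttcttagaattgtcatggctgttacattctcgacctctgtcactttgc

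Stretches of purines were present in both parts of the reference transcript. Purines (G and A) made up 53.6% of the part up to the end of the short isoform and 46.7% of the rest. G alone made up 30.7% and 24.1%, and A 22.9% and 22.7%, in the same order. Purine-only words of 5 nt (G or A at each base), counted on the transcribed strand with overlaps, started 6.28 times per 100 nt in the 5′ part and 3.59 times in the rest. Their median over 3828 annotated lincRNA transcripts of at least 1000 nt was 5.92 per 100 nt. The longest unbroken stretch of G and A was 11 nt in the 5′ part and 80 nt in the rest. Both stretches are printed with 10 nt on each side, the purine stretch in capitals to show the purine-rich sequence that each part holds. They cover bases 2252 to 2282 and 12661 to 12760 of Neat1-201. No site was placed on these sequences, because the annotation is of another build than the sites.
Longest purine stretch, 5′ part: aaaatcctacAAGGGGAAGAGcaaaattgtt
Longest purine stretch, long isoform alone: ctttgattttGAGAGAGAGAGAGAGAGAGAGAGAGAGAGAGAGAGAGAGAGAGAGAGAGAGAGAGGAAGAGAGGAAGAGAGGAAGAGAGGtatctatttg

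The contrast between the parts of Neat1 was close to complete. The 5′ window, from 5842000 to 5846000, held 441 sites and 639 cDNAs in 4001 nt. The window taken as covered by the long isoform alone held 1 site with 1 cDNA in 18000 nt. The 5′ window thus had 99.8% of the sites (95% exact interval 98.7% to 99.99%). Per nucleotide it had 1984 times as many sites, with a 95% exact interval from 354 to 78539, which is wide because it rests on the lone site downstream. Both intervals treat sites as independent, and the gene was picked with this contrast known, so they describe the contrast and do not test it. In the annotation, the isoforms share a span of 3170 nt, apart from the 166 nt spliced from the short transcript. The 5′ window, at 4001 nt, is longer than that span, so part of it lies outside the overlap. Since no site was placed on the transcripts, the sites of the 5′ part were not given to either isoform. The list holds significant sites only, and cDNAs below the authors' threshold in the long-only part are not seen. The authors selected sites by sums over a 15 nt neighbourhood, so the contrast in crowding is not independent of that selection.

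The lone downstream site was at 5840977, 4356 nt from the 5′-most site of Neat1 and 1357 nt beyond the last site of the 5′ part. Of 21883 sites of 1 cDNA in the list, 139 (0.635%) were at least that far from any other site on their strand. Just inside the 5′ part, the most downstream site was at 5842334, with 1 cDNA. Beyond the locus, the nearest minus-strand sites were at 5802675, 38302 nt downstream of the lone site and the 5′ edge of the Malat1 run, with 5 cDNAs, and at 5920655, 75322 nt upstream of the 5′-most site, with 1 cDNA. No plus-strand site lay in the locus. The nearest ones were at 5792277, with 1 cDNA, and at 5931921, with 2. Neat1 therefore stood as an isolated block of sites on its own strand.

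**Figure D1:**
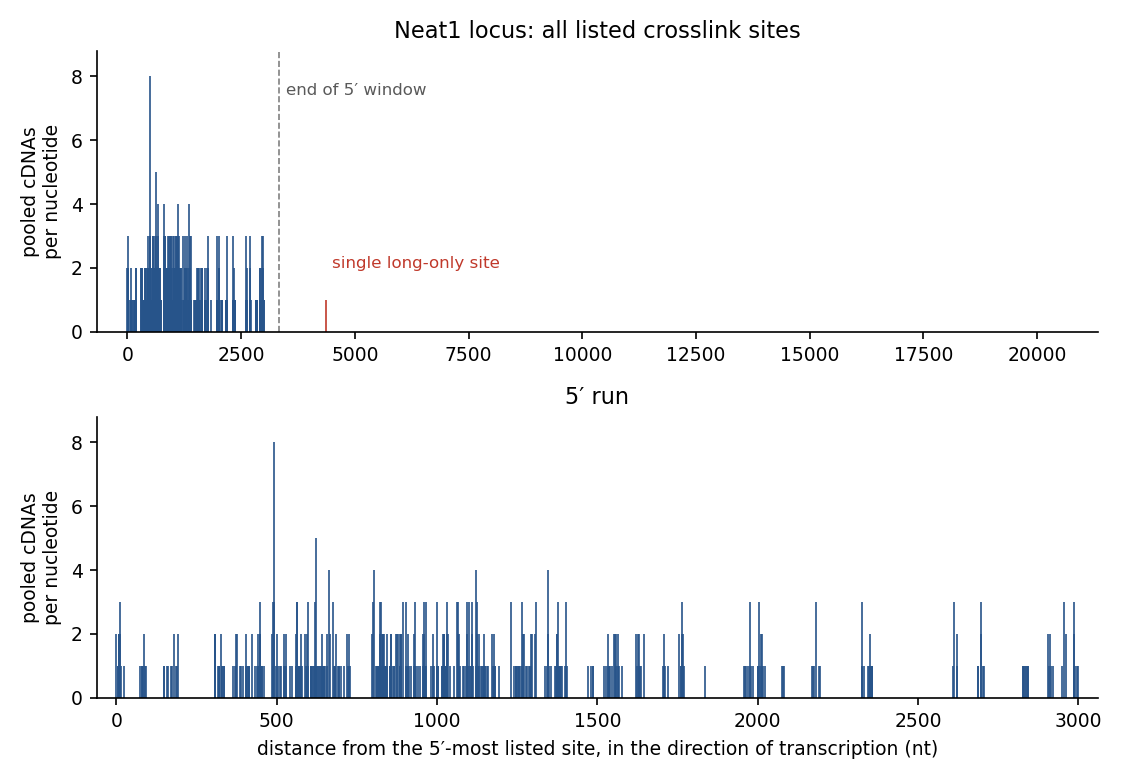
Pooled cDNAs at each listed nucleotide of the Neat1 locus (vertical axis, linear) against the distance from the 5′-most listed site in the direction of transcription (horizontal axis, nt), for the whole locus (top) and for the 5′ run (bottom); each line is 1 site, the dashed line is the end of the 5′ window and red marks the single site of the long-only part. The 441 sites of the 5′ part end at 2999 nt, and the single site beyond them holds 1 cDNA.

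The 441 sites of the 5′ part formed 1 run from 5842334 to 5845333, with no gap of 500 nt or more. The run was 3000 nt long, which is 94.6% of the length that the short isoform spans in the annotation, introns included; where the run lies within that span was not determined. Within it, listed sites occupied 14.7% of nucleotides.

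Most listed sites of Neat1 were shallow, as were most sites in the rest of the list. A single cDNA marked 300 of the 442 sites (67.9%), near the 64.8% of sites outside Neat1. A further 97 sites had 2 cDNAs and 39 had 3, and only 6 sites had more. The highest, at 5844843, had 8 cDNAs, 1.25% of those in the locus, and lay 490 nt from the 5′-most site. The next was at 5844712 with 5 cDNAs. Sites at 5844669, 5844531, 5844213 and 5843988 had 4 each. These 6 highest sites lay between 490 and 1345 nt from the 5′-most site. The 10 highest sites together held 6.42% of the cDNAs of the run, so no single nucleotide carried the signal. The rest of the list reached greater depth. Outside Neat1, 1688 of 33307 sites had 10 or more cDNAs, the maximum was 296 and the mean 2.78 per site. In the 5′ run of Neat1 no site had 10, and the mean was 1.45.

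Sites were most crowded in the upstream 1500 nt of the 5′ run. They held 330 sites and 488 cDNAs, and the downstream 1500 nt held 111 sites and 151 cDNAs. The upstream share of sites was 74.8% (95% exact interval 70.5% to 78.8%, with sites treated as independent although neighbours share fragments and the selection used sums over 15 nt). Of the cDNAs, 50% lay within 988 nt of the 5′-most site and 90% within 2183 nt. From 5′ to 3′, successive windows of 500 nt held 73, 145, 112, 47, 32 and 32 sites. The crowding rose from the first to the second window and then fell away towards the 3′ end.

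Depth per contacted nucleotide was compared over the same windows of 500 nt, from 5′ to 3′. In Neat1 the mean was 1.48, 1.48, 1.48, 1.36, 1.28 and 1.44 cDNAs per site. The largest window value was 4.53 times the smallest for sites and 1.16 times for the mean. The mean of listed sites cannot fall below 1, and most Neat1 sites had a single cDNA, so the ratios are not on a like scale. In Malat1, 12 such windows held 94 to 238 sites with means of 5.82 to 7.27 cDNAs per site, ratios of 2.53 and 1.25. In the run taken as the 45S ribosomal precursor, 3 windows gave ratios of 2.48 and 2.37, and in the Ttn run 24 windows gave 7.67 and 1.54.

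**Figure D2:**
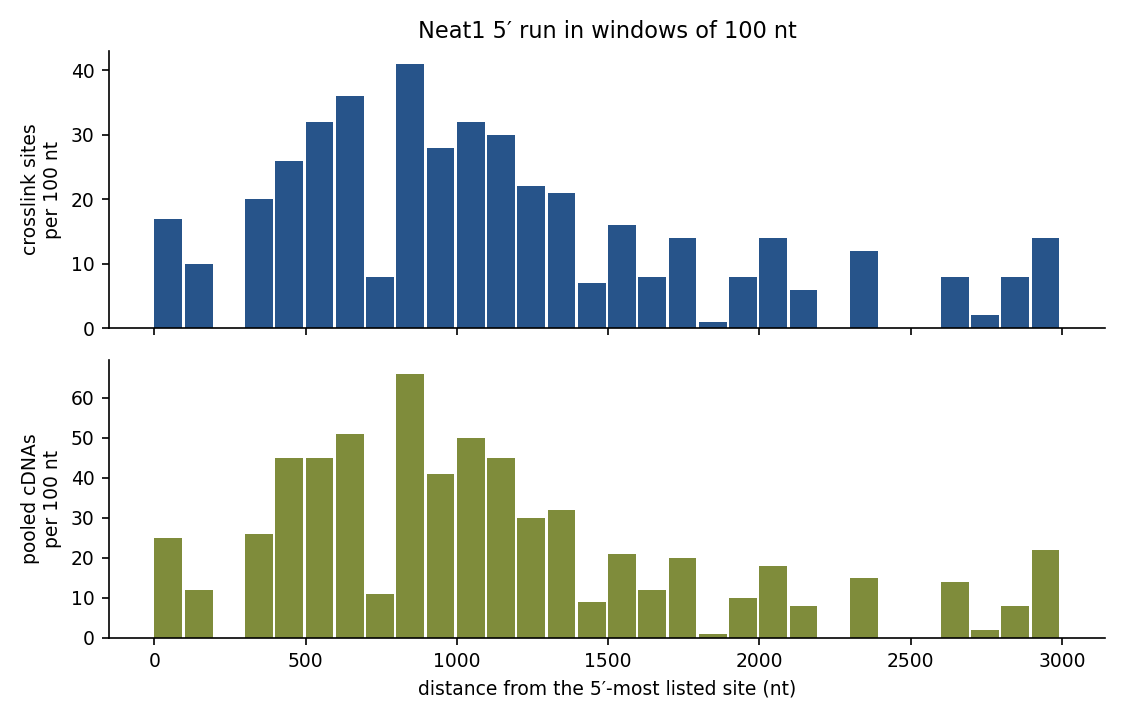
Crosslink sites (top) and pooled cDNAs (bottom) in windows of 100 nt along the Neat1 5′ run, by distance from the 5′-most listed site (horizontal axis, nt); both vertical axes start at 0. The tallest window, from 800 to 899 nt, held 41 sites and 66 cDNAs, and 4 of 30 windows held none.

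On a finer scale, sites of the 5′ run fell into 15 clusters, each joining sites at most 50 nt apart. A pair of wide clusters dominated. The first ran from 306 to 728 nt after the 5′-most site and held 121 sites with 176 cDNAs, the highest site included. The second ran from 796 to 1406 nt and held 178 sites with 271 cDNAs. Together they spanned 1101 nt, or 36.7% of the run, and held 67.8% of its sites and 70.0% of its cDNAs. The other 13 clusters had 1 to 28 sites each.

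By definition the run begins and ends at a listed site, so only the content of its end clusters is described. The 5′-most cluster, from 0 to 91 nt, held 17 sites and 25 cDNAs, and its first string of 7 adjacent nucleotides, from 5 to 11 nt, carried 13 cDNAs. The most downstream cluster, from 2907 to 2999 nt, held 14 sites and 22 cDNAs. Between them, the longest bare stretch was 252 nt from site to site, after the cluster at 2324 to 2358 nt. Sites came back beyond it, in 4 clusters with 32 sites.

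Neighbouring sites of Neat1 lay close but rarely formed solid blocks. The median distance from a site to the next was 2 nt, and 77.0% of the 440 distances were 5 nt or less. Adjacent nucleotides made up 37.0% of them, against 87.8% in the Malat1 run and 30.3% in the Ttn run. The longest strings of adjacent sites in Neat1 were 7 nt, and there were 2 of them. Within 15 nt to each side, the neighbourhood the authors used to select sites, a Neat1 site had a median of 13 cDNAs, its own included, and at most 28. The median was 148 in Malat1 and 8 in Ttn. Only 1 site of the run had no other within 15 nt.

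Set beside its neighbour Malat1, Neat1 had fewer contacted nucleotides and far fewer cDNAs at each. The Malat1 run, from 5796325 to 5802675, held 1887 sites and 11992 cDNAs in 6351 nt. It had 2.02 times as many sites per nucleotide as the 5′ run of Neat1 (95% exact interval 1.82 to 2.25) and 8.86 times as many cDNAs (8.19 to 9.61). The mean was 6.36 cDNAs per site in Malat1 and 1.45 in Neat1, and the highest single site had 59 and 8. Sites with a single cDNA made up 13.9% of the Malat1 run (interval 12.4% to 15.5%) and 67.8% of the Neat1 run (63.2% to 72.1%). In Malat1, 400 sites reached 10 cDNAs, and in Neat1 none did. Sites of 1 transcript are not replicates, and these intervals say nothing of the spread between cultures. None of these values is corrected for how much of each RNA the cells held.

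Of the 3 runs set beside Neat1, the Ttn run was the nearest in cDNAs per site, and it was less crowded. On chromosome 2 from 76680329 to 76692782, minus strand, it held 566 sites over 12454 nt, with a mean of 1.27 cDNAs per site and a maximum of 5. Neat1 had 3.23 times as many sites per nucleotide (95% exact interval 2.85 to 3.67). Single-cDNA sites made up 78.4% of the Ttn run (74.8% to 81.8%), above the 67.8% of Neat1. In the rest of the list, outside Neat1, the share was 64.8% (64.3% to 65.3%). Neighbouring sites are not independent, so these intervals are no test between the runs. Of windows of 100 nt, 4 of 30 (13.3%) were bare in the Neat1 run, 9 of 64 (14.1%) in the Malat1 run and 46 of 125 (36.8%) in the Ttn run. By this share, which rests on few windows, Neat1 lay near Malat1, and in cDNAs per site it lay nearer to Ttn. Sites were less crowded in Neat1 than in Malat1, at 14.7 and 29.7 per 100 nt.

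**Figure D3:**
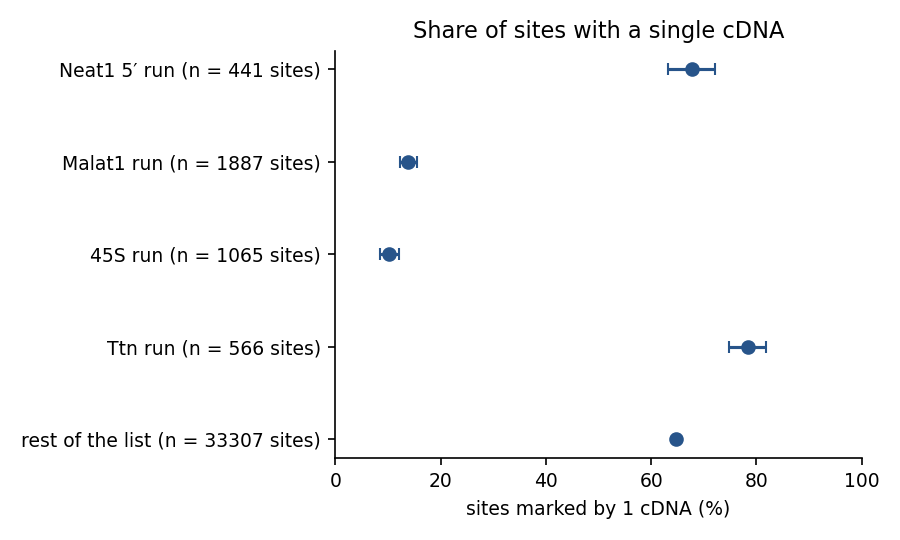
Percent of crosslink sites marked by a single cDNA (horizontal axis) in the Neat1 5′ run, in the runs taken as Malat1, 45S ribosomal precursor RNA and Ttn, and in the list outside Neat1; bars span 95% exact binomial intervals (counting error alone). Neat1, at 67.8%, lies near the rest of the list and far above Malat1 at 13.9%.

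The run taken as the 45S ribosomal precursor, plus strand of chromosome 17, positions 39983381 to 39985047, stood at the other end of the scale. It had 63.9 sites and 876 cDNAs per 100 nt, against 14.7 and 21.3 in Neat1. Of its nucleotides, 63.9% were listed sites, and no window of 100 nt was bare. Among the 20 runs with 100 or more sites, Neat1 ranked 5 by its number of sites, 11 by sites per nucleotide, 11 by cDNAs and 13 by mean cDNAs per site. The median of the mean over these 20 runs was 1.72 cDNAs per site, with a range from 1.13 to 13.7. By cDNAs per site, Neat1 thus lay in the lower part of these runs.

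**Figure D4:**
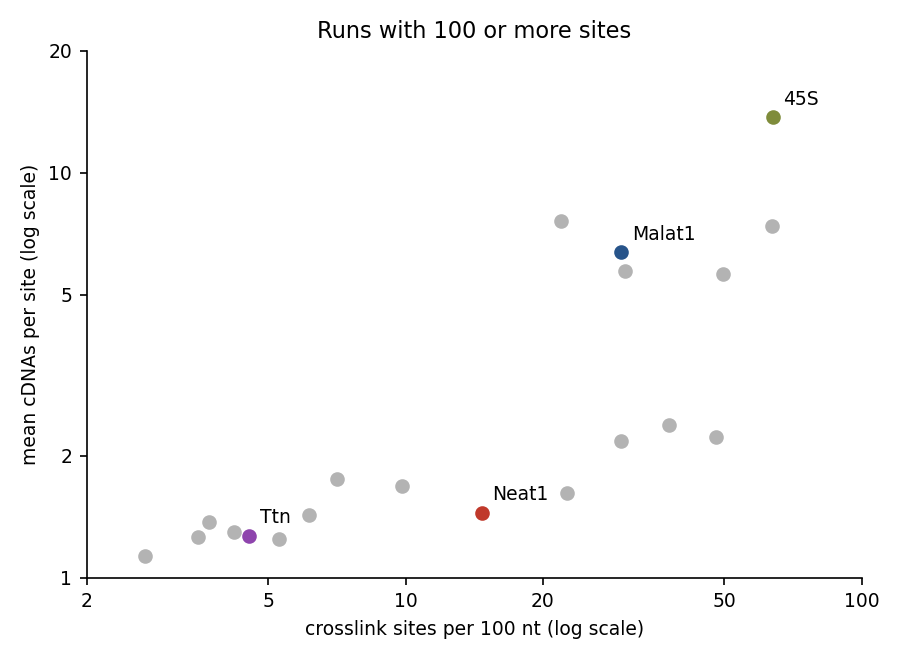
Mean cDNAs per site (vertical axis, log scale) against sites per 100 nt (horizontal axis, log scale) for the 20 runs with 100 or more sites; each point is 1 run and the coloured ones are named. Neat1, at 14.7 sites per 100 nt and 1.45 cDNAs per site, lies between Ttn and Malat1 in crowding. Of the other named runs, Ttn is the nearest to Neat1 in depth, with unnamed runs between them.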

How the data were processed

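The members and lists were chosen with earlier results of these data known. The deposited file is 1 list of crosslink positions, each 1 nt wide, on mm9, with a score per position: a whole number of cDNAs whose sign gives the strand. Per the file header, the authors summed 5 data sets and kept positions by 100 permutations (15 nt neighbourhood, FDR below 0.05, regions separately, Ensembl 59). The labels list 4 libraries, and the sources used here do not say how the data sets map to them or how duplicate cDNAs and reads with several matches were handled. The submitters' processing notes name Bowtie 0.10.1. The depth of each library is unknown.

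Locus bounds came from the rule above. Sites less than 500 nt apart formed runs, and sites at most 50 nt apart formed clusters. The sites named were the 5 highest of the 5′ part, 1 tied with them, and the nearest outside the locus; the comparison runs were those with most sites on chromosomes 2, 17 and 19. Windows, the upstream and downstream 1500 nt, and neighbourhood sums were added after the sites were seen. Shares and ratios have 95% exact (Clopper-Pearson) intervals, and no test was made. The block routine was tested on simulated data. A list of paraspeckle genes was not counted, since no mm9 annotation was used here. Python 3.11.15, numpy 2.4.6, pandas 2.3.3, scipy 1.17.1 and matplotlib 3.10.9 were used.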

Additional observations from a re-analysis of the deposited data

How the results depend on the processing

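No paired analysis was possible because the list is pooled, and for the same reason leaving out single libraries was not run. Of 27 alternative values, 14 stayed within 1.5 times the count or within the interval of the value reported. This tally is not a measure of robustness. Starting the 5′ part at the low end of its run moved no site, so its shares and mean were fixed in advance. The density ratios were judged against wide intervals, for sites from 354 to 78539, so staying inside is a weak check. With sites of 2 or more cDNAs alone, Neat1 had 142 sites and 340 cDNAs, 0.476% of the cDNAs of the list so restricted, with a mean of 2.39 per site in the 5′ part. The 5′ part then held 100% of sites and of cDNAs, and no density ratio could be given. That outcome was fixed in advance, because the lone downstream site has 1 cDNA and is removed. Among sites with a neighbour within 15 nt, an alternative chosen after the data were seen, the 5′ part held 100% of sites. This too was fixed in advance, because the lone downstream site has no neighbour that near. Neither value is a check on the contrast. With clusters counted once each it held 93.8% of 16. With lengths taken between listed sites, the ratio of site densities was 199 in place of 1984, and that of cDNA densities 289 in place of 2875, because the long-only part is then 1357 nt long. Gaps of 100 nt or more gave 7 runs in place of 2. Joining sites at most 15 nt apart gave 26 clusters in the locus, and at most 100 nt apart 7, in place of 16.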

Other observations

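By the narrower measure of the authors' neighbourhood, 1497 of the 33749 listed sites had no other site within 15 nt on their strand, and 301 of these carried 1 cDNA. In the Ttn run 7 sites were so placed, 6 of them with 1 cDNA, and in the Malat1 run none.

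In the 5′ run of Neat1, 4 of 441 sites (0.907%) had 3 or fewer cDNAs within 15 nt to each side, against 25.0% of sites in the list and 7.60% in the Ttn run. In the Malat1 and 45S runs no site had so few. The authors selected sites by sums over this same neighbourhood, with regions taken separately, so these shares are not independent of that selection.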
